A study of Mus musculus with 8 samples.

Results

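Collagen chains are the genes whose symbol in the deposited tables reads Col, a type number, the letter a and a chain number. There were 40 such genes among the 21997 genes listed for all 8 libraries. Each library was made from the polyadenylated RNA of a single mouse follicle, separated from a C57BL/6 ovary with a needle. The follicles were small antral (SAF) or preantral (PF), and came from transplanted female germline stem cells (TF) or from wild type mice (WT), in a series titled for the restoration of ovarian function with such cells. The 4 groups, each with 2 libraries, were SAF-TF, PF-TF, SAF-WT and PF-WT. All 8 follicles were from C57BL/6 mice. The labels do not give the age of the mice, the transplant hosts or their treatment, and do not tell transplant-derived from host cells within a follicle. Nothing in the labels says whether both follicles of a group came from separate animals, so p-values measure only the spread between these libraries.

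Collagens are built from alpha chains that wind around each other into a helix, some from copies of 1 chain and others from different chains, so the relative amount of partner chains matters for which molecule can form. Fibrillar collagens (types I, III, V and XI among them) make the banded fibres of connective tissue, and in the ovary they are known from the stroma and the theca, the connective tissue layer around a growing follicle. Type IV collagen is the network of basement membranes, including the follicular basal lamina that separates granulosa cells from the theca, and its chain makeup is known to change as follicles grow. Type VI collagen forms beaded filaments close to cells, and the remaining classes decorate fibrils, span the membrane or sit in specialised matrices.

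The 40 chains comprised 8 fibrillar, 6 basement membrane, 6 beaded filament, 8 fibril-associated, 4 transmembrane, 3 short-chain network, 2 multiplexin and 3 anchoring fibril or other chains. Total counts per library ran from 7656108 to 9805287, of which collagen chains took 8947 and 5710 counts in SAF-TF, 2218 and 3097 counts in PF-TF, 15315 and 14686 counts in SAF-WT, and 3308 and 1913 counts in PF-WT. Levels are given as CPM, the counts scaled to library size times the library's TMM factor, which ran from 0.890 to 1.07. A listed 0 is compatible with up to 3 counts, or 0.306 to 0.392 CPM by library, and this limit covers counting error only. The filter on low counts kept 34 of the 40 chains for testing. Col7a1, Col8a2, Col10a1, Col17a1, Col19a1 and Col20a1 were too low, with at most 18 counts in any library. Col7a1 is the chain of anchoring fibrils and Col10a1 that of hypertrophic cartilage, and Col10a1 had no count in any of the 4 PF libraries. Other chain genes, among them Col2a1 and Col9a1, were not analysed here.

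Markers of other cell types moved with the groups. The summed level of 8 stroma and fibroblast markers was 1781 and 1288 CPM in SAF-TF, 56.4 and 115 CPM in PF-TF, 8228 and 5334 CPM in SAF-WT, and 369 and 208 CPM in PF-WT. The sum of 7 smooth muscle and pericyte markers was 1758 and 1153 CPM in SAF-TF, 81.4 and 96.5 CPM in PF-TF, 2801 and 2353 CPM in SAF-WT, and 574 and 173 CPM in PF-WT. Both sums were thus higher in every SAF library than in any PF library. The 6 oocyte markers summed to 231 to 433 CPM in SAF-TF, 12338 to 13850 CPM in PF-TF, 650 to 3145 CPM in SAF-WT and 6196 to 7053 CPM in PF-WT. The 6 granulosa markers summed to 1419 and 2102 CPM in SAF-TF, 3402 and 3202 CPM in PF-TF, 343 and 478 CPM in SAF-WT, and 1564 and 2948 CPM in PF-WT. With stage in WT all 6 granulosa markers were called lower and all 4 tested theca markers higher by edgeR. In TF 3 granulosa markers were called lower and 1 theca marker higher. Of the 8 stroma markers 7 were called higher at each source, and 1 was called lower in WT. Smooth muscle markers were called higher for 6 of 7 in TF and 5 of 7 in WT, and macrophage markers for 6 of 6 in TF and 0 of 6 in WT. Of all genes, 18.2% were called higher and 25.0% lower in TF, and 12.7% higher and 22.5% lower in WT. In the SAF-TF libraries 5 luteal markers summed to 13986 and 13458 CPM, against 31.9 to 107.6 CPM in the other 6 libraries, and no defining marker of any list was at 0 in both libraries of a group. In whole follicles, fewer cells of a type and less RNA per cell cannot be told apart.

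Collagen RNA as a whole was higher in small antral follicles of both sources. The 40 chains summed to 984 and 644 CPM in SAF-TF against 246 and 311 CPM in PF-TF, and to 1757 and 1740 CPM in SAF-WT against 434 and 212 CPM in PF-WT. The ratio of the group means was 2.93 for TF and 5.41 for WT. The SAF and PF libraries did not overlap in either source, and both SAF-TF libraries lay below both SAF-WT libraries. The fibrillar chains made up most of this. They summed to 547 and 362 CPM in SAF-TF, 46.1 and 98.5 CPM in PF-TF, 1298 and 1244 CPM in SAF-WT, and 246 and 82.5 CPM in PF-WT. Their share of all collagen counts was 55.9 ± 0.465% in SAF-TF, 25.2 ± 9.16% in PF-TF, 72.7 ± 1.70% in SAF-WT and 47.7 ± 12.6% in PF-WT (SD, n = 2 each). Basement membrane chains took 23.6 ± 0.314% in SAF-TF, 26.4 ± 3.65% in PF-TF, 14.1 ± 0.737% in SAF-WT and 21.1 ± 5.96% in PF-WT. Beaded filament chains took 14.1 ± 1.19% in SAF-TF, 20.9 ± 2.99% in PF-TF, 10.4 ± 0.855% in SAF-WT and 17.9 ± 2.36% in PF-WT. The multiplexins, which are the basement membrane-associated chains Col15a1 and Col18a1, had their highest share in PF-TF, 12.4 ± 3.63%, against 2.20 ± 1.91% in PF-WT. The summed shares were described without a test.

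**Figure D1:**
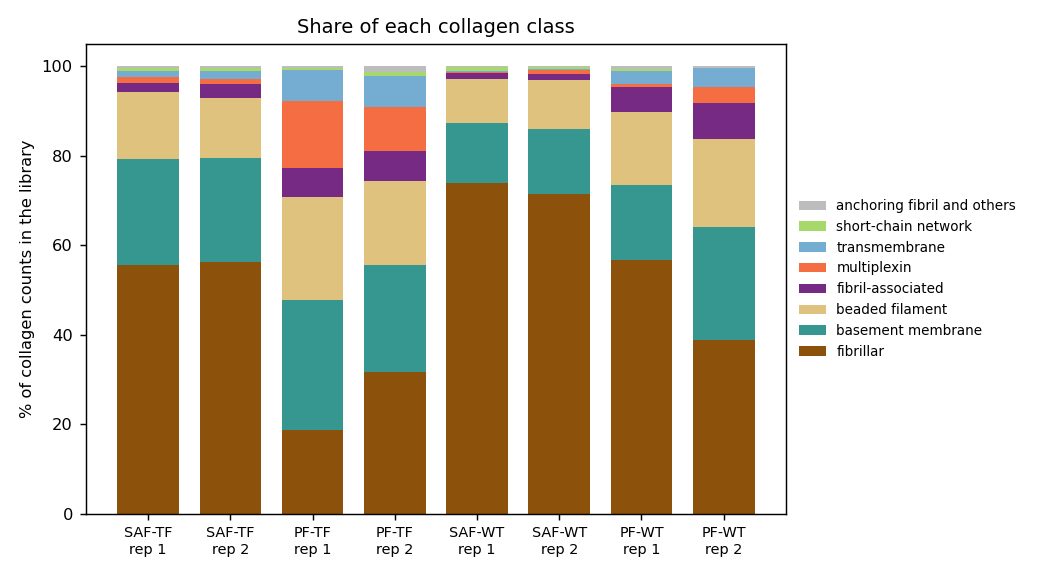
Percentage of each library's collagen counts (y axis) taken by each of 8 collagen classes (colours), with 1 bar per library and groups in the order SAF-TF, PF-TF, SAF-WT and PF-WT. Fibrillar chains took 71.5% and 73.9% of collagen counts in the SAF-WT libraries and 18.8% and 31.7% in the PF-TF libraries.

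Levels were compared between genes as CPM per kilobase of the longest annotated transcript (mean ± SD, n = 2 for every per-kilobase level and ratio). In SAF-TF the highest chains were Col3a1 at 35.7 ± 12.0 and Col1a2 at 27.8 ± 8.21 CPM per kb, followed by Col6a1 at 14.9 ± 6.05 and Col4a1 at 14.5 ± 5.12 CPM per kb. The first pair overlapped between libraries, and so did the second pair. In PF-TF the order was another: Col18a1 led at 5.95 ± 0.80 CPM per kb, and Col6a1, Col4a5, Col1a2, Col9a2 and Col4a3 followed at 3.33 to 3.81 CPM per kb, too close to be ordered. In SAF-WT, Col1a2 at 93.0 ± 3.13 and Col3a1 at 89.3 ± 0.14 CPM per kb stood far above Col4a1 at 18.8 ± 1.45 CPM per kb, next to which Col11a1 and Col6a1, both at 18.4 CPM per kb, were not distinguishable. In PF-WT, Col3a1 at 9.92 ± 7.46 and Col1a2 at 9.64 ± 7.62 CPM per kb were above Col6a1 at 5.13 and Col9a2 at 4.36 CPM per kb on average, but the spread between the 2 libraries was wider than these gaps. Col1a2 and Col3a1 were thus among the first 2 chains in every group but PF-TF.

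The stage effect, SAF over PF, asks how follicle growth relates to each chain. It was tested with the edgeR quasi-likelihood test on all 17925 genes that passed the filter, with Benjamini-Hochberg adjustment, in 1 fit of the 8 libraries, and every log2 fold change is given ± SE. In TF follicles 13 of 34 tested chains were called higher in SAF (38.2%), against 18.2% of all genes, and 4 were called lower (11.8%), against 25.0% of all genes. In WT follicles 14 chains were called higher (41.2%), against 12.7% of all genes, and 2 lower (5.88%), against 22.5% of all genes. The median log2 fold change of the tested chains was 0.66 in TF and 1.20 in WT, where the median of all genes was -0.08 and -0.20. Another scaling shifted all genes: with the authors' own scale factors, which moved the median of all genes up by 0.35 (TF) and 0.34 (WT) on the log2 scale, 14 chains were higher and 3 lower in TF, and 18 higher and 1 lower in WT, where all genes split into 4565 higher and 3563 lower in TF and 3587 higher and 3116 lower in WT. The 10 chains called higher at both sources were Col1a1, Col1a2, Col3a1, Col5a1, Col5a2, Col4a1, Col4a2, Col6a1, Col6a2 and Col12a1, which is 76.9% of the TF list and 71.4% of the WT list. Col25a1 was called lower at both sources. How many of all genes were called at both sources was not counted, so these shares have no background beside them.

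**Figure D2:**
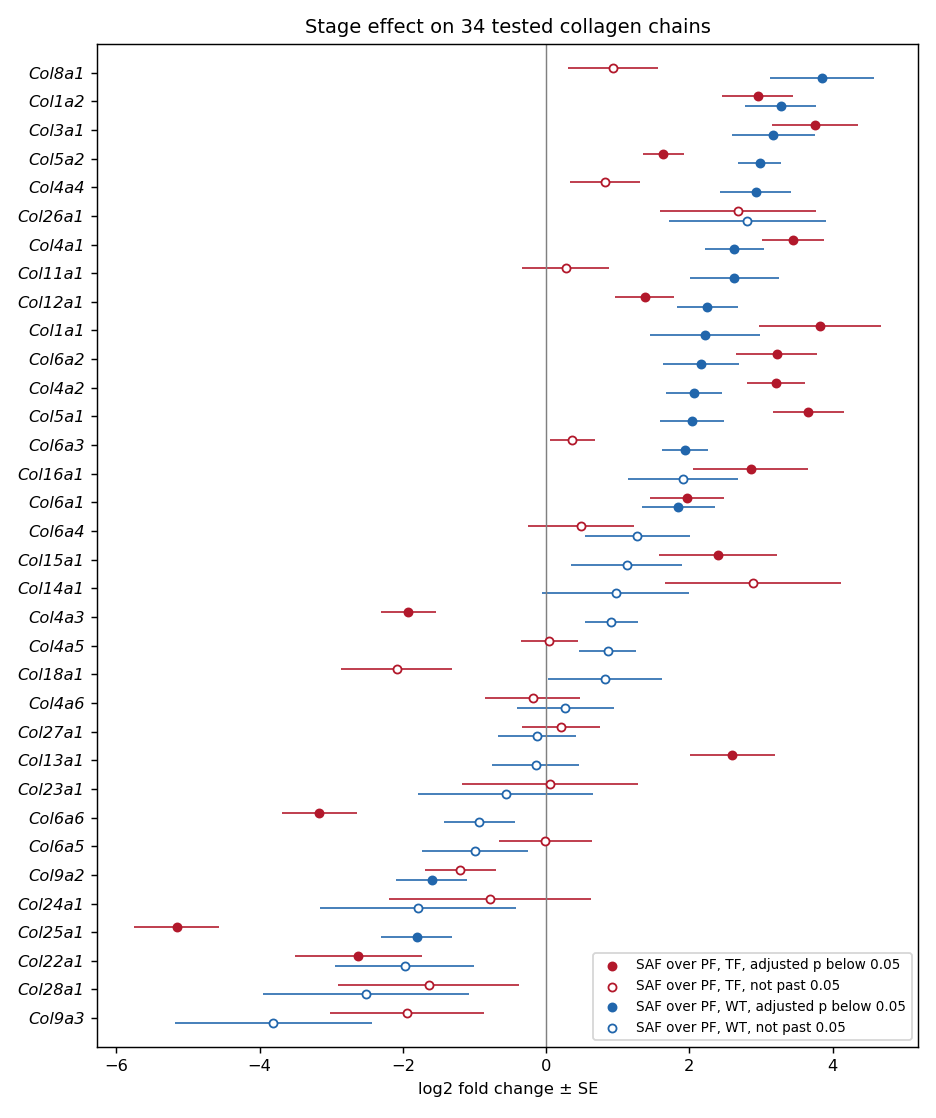
Log2 fold change ± SE (x axis) of small antral over preantral follicles for the 34 tested chains (y axis, ordered by the WT value), TF in red and WT in blue, with filled points past an adjusted p of 0.05. Most fibrillar, type IV and type VI chains lie right of 0 at both sources, and Col25a1 has the lowest TF value at -5.16.

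Of the fibrillar chains, 5 of 8 rose with stage in TF (median log2 fold change 2.29) and 6 of 8 in WT (median 2.42). Col3a1, the single chain of type III collagen, is encoded at chr1:45311538-45349706 (GRCm38, plus strand). It had 246 and 151 CPM in SAF-TF against 7.75 and 21.6 CPM in PF-TF, and 497 and 496 CPM in SAF-WT against 84.6 and 25.9 CPM in PF-WT. No SAF library overlapped a PF library, and the lower PF-WT library stood close to the higher PF-TF library. Its log2 fold change was 3.75 ± 0.60 in TF (edgeR adjusted p = 0.00101) and 3.17 ± 0.58 in WT (edgeR adjusted p = 0.00284). Col1a2, one of the 2 chains of type I collagen, at chr6:4505618-4541543 on the plus strand, had 179.8 and 118 CPM in SAF-TF against 16.8 and 21.6 CPM in PF-TF. In WT follicles Col1a2 had 509 and 486 CPM in SAF-WT against 80.4 and 22.7 CPM in PF-WT. The PF-WT libraries differed by a wide margin, as they did for Col3a1, while the SAF-WT libraries were nearly equal. The change was 2.95 ± 0.50 in TF (edgeR adjusted p = 0.00132) and 3.27 ± 0.50 in WT (edgeR adjusted p = 0.00115).

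Col1a1, the partner of Col1a2 in type I collagen, had 55.3 and 22.4 CPM in SAF-TF against 1.00 and 4.42 CPM in PF-TF, and 60.5 and 59.7 CPM in SAF-WT against 22.1 and 3.88 CPM in PF-WT. Its PF-WT replicate 1 was level with the lower SAF-TF library. The log2 fold change was 3.82 ± 0.86 in TF (edgeR adjusted p = 0.00583) and 2.22 ± 0.77 in WT (edgeR adjusted p = 0.048). Type I collagen is usually assembled from more Col1a1 than Col1a2 chains. The RNA of Col1a2 per kilobase exceeded that of Col1a1 in all 8 libraries. The excess was 4.71 ± 1.56-fold in SAF-TF, 12.1 ± 9.41-fold in PF-TF, 9.18 ± 0.23-fold in SAF-WT and 5.27 ± 1.74-fold in PF-WT. The PF-TF libraries, at 18.7-fold and 5.42-fold, held only 9 and 44 counts of Col1a1. How evenly reads covered the 2 transcripts was not checked, so these values are not read as ratios of chains. The WT call of Col1a1 was lost without SAF-TF replicate 1 (adjusted p = 0.0513), without SAF-WT replicate 1 (0.134) or replicate 2 (0.115) and without PF-WT replicate 2 (0.162, log2 fold change 1.45), and by DESeq2 (0.0876). Without PF-WT replicate 1 the WT log2 fold changes were 4.08 for Col1a1, 4.58 for Col1a2 and 4.39 for Col3a1, and without PF-WT replicate 2 they were 2.63 for Col1a2 and 2.55 for Col3a1. In TF, Col1a1 ran from 3.03 without SAF-TF replicate 1 and 3.24 without PF-TF replicate 1 to 5.38 without PF-TF replicate 2, where Col3a1 was at 4.80, all past the threshold.

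**Figure D3:**
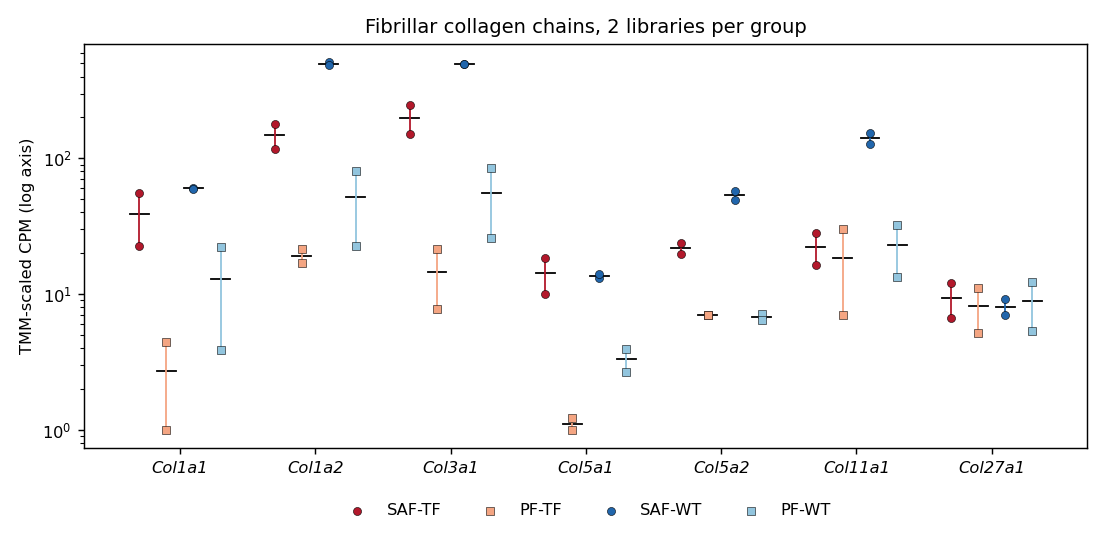
TMM-scaled CPM (y axis, log scale) of 7 fibrillar chains in each of the 8 libraries (points), with group means as bars. Col11a1 and Col27a1 overlap between SAF-TF and PF-TF, whereas Col1a1, Col1a2, Col3a1, Col5a1 and Col5a2 do not.

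Types V and XI are minor fibrillar collagens that are known to start and limit the width of fibrils. Col5a1 had 18.4 and 10.04 CPM in SAF-TF against 1.22 and 1.00 CPM in PF-TF, and 13.2 and 14.0 CPM in SAF-WT against 3.94 and 2.66 CPM in PF-WT. It rose by a log2 fold change of 3.66 ± 0.49 in TF (edgeR adjusted p = 3.81e-04) and 2.04 ± 0.45 in WT (edgeR adjusted p = 0.00697). Col5a2, which lies 24624 bases from Col3a1 on chromosome 1, had 23.98 and 19.6 CPM in SAF-TF against 6.98 and 7.02 CPM in PF-TF, and 57.4 and 49.5 CPM in SAF-WT against 7.09 and 6.44 CPM in PF-WT. The PF libraries of both sources were within about 1 CPM of each other, so that the larger WT change, 2.98 ± 0.30 (edgeR adjusted p = 1.27e-04) beside 1.64 ± 0.29 in TF (edgeR adjusted p = 0.00155), lay in the SAF libraries. The difference between these changes was -1.34 ± 0.40 and did not pass the interaction test (edgeR adjusted p = 0.148). Col11a1, at chr3:114030479-114220756 on the plus strand, had 16.5 and 28.2 CPM in SAF-TF against 6.98 and 29.9 CPM in PF-TF, and 153.7 and 128 CPM in SAF-WT against 32.4 and 13.3 CPM in PF-WT. The TF groups overlapped and the WT groups did not. Its change was 0.27 ± 0.60 in TF (edgeR adjusted p = 0.743) and 2.63 ± 0.62 in WT (edgeR adjusted p = 0.0101), and the difference, -2.36 ± 0.86, did not pass the interaction test (edgeR adjusted p = 0.227). The WT call of Col11a1 was lost without SAF-WT replicate 1 (adjusted p = 0.052) or PF-WT replicate 2 (0.0619), and without PF-WT replicate 1 its log2 fold change was 3.54. Col27a1, a cartilage-associated fibrillar chain, stayed between 5.21 and 12.3 CPM in all 8 libraries, and Col24a1 was at 0 to 3.15 CPM; neither was called.

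Promoter sequences are shown for the 2 highest fibrillar chains, to set beside their parallel rise, from RefSeq's table on GRCm38.p6. Each runs 5′ to 3′ on the gene's strand, from 250 bases before to 50 bases after the start listed with the promoter. For Col4a1 and Col4a4, shown further below, that start lies inside the gene's span and not at its edge. Capitals mark the CCAAT box, the GC box GGGCGG and the TATA box TATAAA, searched on both strands, so that reverse complements are in capitals too, and no match overlapped another. Col1a2 lies at chr6:4505368-4505667 and Col3a1 at chr1:45311288-45311587.
Col1a2: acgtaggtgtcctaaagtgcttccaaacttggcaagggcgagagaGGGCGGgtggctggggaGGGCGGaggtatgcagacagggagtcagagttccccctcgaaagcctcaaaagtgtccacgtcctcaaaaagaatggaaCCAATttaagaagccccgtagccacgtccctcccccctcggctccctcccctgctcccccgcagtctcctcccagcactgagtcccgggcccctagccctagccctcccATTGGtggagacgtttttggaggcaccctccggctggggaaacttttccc
Col3a1: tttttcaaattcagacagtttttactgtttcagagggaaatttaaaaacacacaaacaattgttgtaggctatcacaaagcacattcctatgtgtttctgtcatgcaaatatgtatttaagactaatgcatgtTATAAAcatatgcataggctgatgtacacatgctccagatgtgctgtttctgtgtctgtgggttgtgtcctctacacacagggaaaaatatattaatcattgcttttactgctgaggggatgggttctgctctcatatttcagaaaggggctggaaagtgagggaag
The Col1a2 window held 2 CCAAT and 2 GGGCGG matches, and the Col3a1 window held 1 TATAAA match and neither of the others. Of all 27025 windows of this length in the table, 37.9% held CCAAT, 35.9% GGGCGG and 14.2% TATAAA. The 2 windows had none of the 3 motifs in common.

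The 6 basement membrane chains split by partner. Type IV collagen is known to form from Col4a1 with Col4a2, from Col4a3 with Col4a4 and Col4a5, or from Col4a5 with Col4a6. In TF, 2 of the 6 rose with stage and 1 fell (median log2 fold change 0.43), and in WT 3 rose (median 1.49). Col4a1 and Col4a2 lie head to head on chromosome 8, at chr8:11198423-11312889 (minus strand) and chr8:11312805-11449287 (plus strand), where their annotated spans share 85 bases. Col4a1 had 119.6 and 71.6 CPM in SAF-TF against 8.86 and 8.63 CPM in PF-TF, and 117 and 131 CPM in SAF-WT against 28.6 and 11.7 CPM in PF-WT. Col4a2 had 73.4 and 42.6 CPM in SAF-TF against 6.53 and 6.02 CPM in PF-TF, and 50.6 and 57.7 CPM in SAF-WT against 17.3 and 8.66 CPM in PF-WT. Both chains separated SAF from PF without overlap at both sources. Col4a1 rose by 3.45 ± 0.43 on the log2 scale in TF (edgeR adjusted p = 2.49e-04) and by 2.63 ± 0.41 in WT (edgeR adjusted p = 0.00125). Col4a2 rose by 3.21 ± 0.41 in TF (edgeR adjusted p = 2.81e-04) and by 2.06 ± 0.39 in WT (edgeR adjusted p = 0.00322). Per kilobase, Col4a1 exceeded Col4a2 by 1.61 ± 0.03-fold in SAF-TF, 1.36 ± 0.05-fold in PF-TF, 2.24 ± 0.03-fold in SAF-WT and 1.46 ± 0.21-fold in PF-WT. Without PF-WT replicate 1 the WT log2 fold changes were 3.54 for Col4a1, 2.77 for Col4a2 and 3.52 for Col4a4.

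The windows of the head-to-head pair are printed to show the stretch from which both are transcribed, in opposite directions, with the same motifs in capitals. Col4a1 is on the minus strand at chr8:11312777-11313076 and Col4a2 on the plus strand at chr8:11312555-11312854.
Col4a1: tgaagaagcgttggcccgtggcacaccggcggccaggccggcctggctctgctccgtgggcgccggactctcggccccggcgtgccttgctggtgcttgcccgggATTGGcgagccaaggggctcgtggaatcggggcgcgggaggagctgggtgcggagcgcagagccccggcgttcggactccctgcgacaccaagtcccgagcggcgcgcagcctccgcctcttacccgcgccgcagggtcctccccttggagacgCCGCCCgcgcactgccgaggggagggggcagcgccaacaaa
Col4a2: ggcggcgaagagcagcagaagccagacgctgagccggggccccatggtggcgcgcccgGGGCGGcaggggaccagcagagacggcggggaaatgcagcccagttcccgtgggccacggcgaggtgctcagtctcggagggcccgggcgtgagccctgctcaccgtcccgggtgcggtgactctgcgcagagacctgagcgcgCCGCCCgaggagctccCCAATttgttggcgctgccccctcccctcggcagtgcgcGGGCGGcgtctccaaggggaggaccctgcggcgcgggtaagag
Both windows held 1 CCAAT match, and they held 1 (Col4a1) and 3 (Col4a2) GGGCGG matches and no TATAAA match. The windows overlap, and the GGGCGG match of Col4a1 is the same site as the last of Col4a2, read on the other strand. With the strand setting of the authors' counting not stated, reads from the shared 85 bases cannot be told apart.

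Col4a3 moved the other way from Col4a1 in TF follicles. This chain, at chr1:82586921-82722059, had 6.05 and 8.91 CPM in SAF-TF against 36.3 and 20.7 CPM in PF-TF, and 22.0 and 20.3 CPM in SAF-WT against 9.45 and 13.0 CPM in PF-WT. Both PF-TF libraries lay above both SAF-TF libraries, whereas in WT both SAF libraries lay above both PF libraries. The change was -1.93 ± 0.39 in TF (edgeR adjusted p = 0.00321) and 0.91 ± 0.38 in WT (edgeR adjusted p = 0.0865), where DESeq2 called it higher. The difference between the 2 stage effects was -2.84 ± 0.54 and was the only interaction called among the 34 chains (edgeR adjusted p = 0.0458), where 0.658% of all genes were called higher and 0.245% lower. No chain was called higher in the interaction by edgeR, and DESeq2 called 0 higher and 3 lower (Col4a3, Col6a3 and Col25a1). Of all 17925 genes, DESeq2 called 482 higher and 328 lower in the interaction. The Col4a3 interaction was lost without any 1 library other than PF-TF replicate 2. Its adjusted p was then 0.178 and 0.0865 without SAF-TF replicate 1 and 2, 0.106 without PF-TF replicate 1, 0.123 and 0.149 without SAF-WT replicate 1 and 2, and 0.0927 and 0.0512 without PF-WT replicate 1 and 2. The fall of Col4a3 in TF passed the threshold under all 15 alternatives. Summed oocyte and granulosa markers were also higher in PF-TF than in SAF-TF, as given above. Both sums were likewise higher in PF-WT than in SAF-WT, where Col4a3 lay higher in SAF. In the interaction edgeR called 5 of 5 luteal and 2 of 6 macrophage markers higher, and 0 oocyte and 0 granulosa markers in either direction. The part of any of these markers in the Col4a3 changes was not tested.

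Col4a4, the neighbour and partner of Col4a3, behaved differently. Col4a4 lies at chr1:82448419-82587034 on the minus strand and shares 114 bases with Col4a3. It had 4.07 and 4.06 CPM in SAF-TF against 1.66 and 2.91 CPM in PF-TF, and 18.4 and 14.5 CPM in SAF-WT against 2.76 and 1.55 CPM in PF-WT. The 2 SAF-WT libraries stood apart from the other 6. The change was 2.93 ± 0.50 in WT (edgeR adjusted p = 0.00192) and 0.82 ± 0.48 in TF (edgeR adjusted p = 0.198), and the difference, -2.11 ± 0.68, did not pass the interaction test (edgeR adjusted p = 0.179). Per kilobase, Col4a3 exceeded Col4a4 by 2.17 ± 0.59-fold in SAF-TF, 17.1 ± 12.3-fold in PF-TF, 1.54 ± 0.17-fold in SAF-WT and 6.96 ± 4.12-fold in PF-WT. Col4a3 per kilobase was 2.51 ± 0.93 times Col4a1 in PF-TF but 0.07 ± 0.04 times in SAF-TF, 0.13 ± 0.02 times in SAF-WT and 0.56 ± 0.43 times in PF-WT. Col4a5, on the X chromosome 1274 bases from Col4a6, had 28.8 and 20.1 CPM in SAF-TF, 14.3 and 33.0 CPM in PF-TF, 27.8 and 26.3 CPM in SAF-WT and 14.1 and 15.8 CPM in PF-WT. It was not called at either source (log2 fold change 0.05 ± 0.39 in TF and 0.86 ± 0.40 in WT; edgeR adjusted p = 0.935 and 0.123). Col4a6 stayed at 1.31 to 3.91 CPM in all 8 libraries. The window of Col4a4, at chr1:82586800-82587099 on the minus strand, is shown because it covers the stretch shared with Col4a3.
Col4a4: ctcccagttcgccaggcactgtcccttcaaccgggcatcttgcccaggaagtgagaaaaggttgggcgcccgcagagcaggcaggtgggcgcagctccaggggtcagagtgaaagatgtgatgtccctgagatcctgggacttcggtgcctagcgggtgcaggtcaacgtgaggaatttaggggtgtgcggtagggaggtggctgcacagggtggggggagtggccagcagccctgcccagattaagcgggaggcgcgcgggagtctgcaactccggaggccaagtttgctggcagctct
It held none of the 3 motifs.

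**Figure D4:**
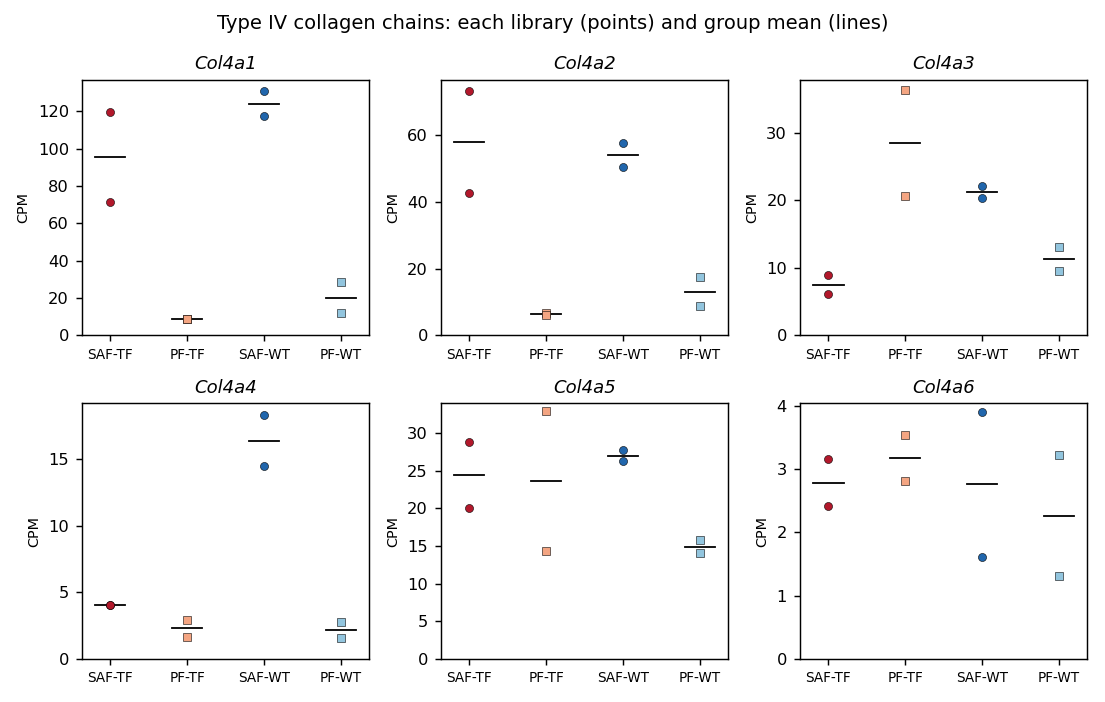
CPM (y axis, linear from 0) of the 6 type IV chains in each library (points), with group means as lines and groups from left to right SAF-TF, PF-TF, SAF-WT and PF-WT. Col4a1 and Col4a2 are high in both SAF groups, Col4a3 is highest in PF-TF at 20.7 and 36.3 CPM, and Col4a4 is highest in SAF-WT, at 14.5 and 18.4 CPM.

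Of the type VI chains, Col6a1 and Col6a2 rose with stage at both sources. In TF 2 of the 6 beaded filament chains rose and 1 fell, and in WT 3 rose. Col6a1 had 78.8 and 43.6 CPM in SAF-TF against 10.9 and 20.4 CPM in PF-TF, and 68.4 and 82.1 CPM in SAF-WT against 31.4 and 10.7 CPM in PF-WT. Col6a2, its neighbour on chromosome 10, had 31.8 and 16.9 CPM in SAF-TF against 1.55 and 3.61 CPM in PF-TF, and 22.7 and 34.4 CPM in SAF-WT against 8.80 and 3.995 CPM in PF-WT. Both of these partner chains were at similar levels in SAF-TF and SAF-WT. The changes were 1.97 ± 0.51 (edgeR adjusted p = 0.012) for Col6a1 and 3.22 ± 0.57 (edgeR adjusted p = 0.00161) for Col6a2 in TF. In WT they were 1.84 ± 0.51 (edgeR adjusted p = 0.0193) for Col6a1 and 2.16 ± 0.53 (edgeR adjusted p = 0.0116) for Col6a2. Col6a3, the large chain that completes the classical filament, had 23.8 and 17.9 CPM in SAF-TF against 19.2 and 13.2 CPM in PF-TF, and 73.0 and 60.4 CPM in SAF-WT against 20.4 and 14.5 CPM in PF-WT. The SAF-WT libraries again stood apart from the other 6. Col6a3 changed by 0.36 ± 0.31 in TF (edgeR adjusted p = 0.376) and by 1.94 ± 0.32 in WT (edgeR adjusted p = 0.00166). The difference, -1.57 ± 0.44, did not pass the edgeR interaction test (adjusted p = 0.134).

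Col6a6, one of the 3 later-found chains that can stand in for Col6a3, went down with stage in TF. It had 2.42 and 1.02 CPM in SAF-TF against 18.4 and 12.7 CPM in PF-TF, and 2.98 and 3.91 CPM in SAF-WT against 5.52 and 7.66 CPM in PF-WT. The PF-TF libraries were above the other 6. Its log2 fold change was -3.17 ± 0.53 in TF (edgeR adjusted p = 0.00121) and -0.93 ± 0.49 in WT (edgeR adjusted p = 0.17). Col6a4 and Col6a5, the neighbours of Col6a6 on chromosome 9, stayed between 0.459 and 9.12 CPM and were not called by edgeR. Several of these calls rested on single libraries. For Col6a1 the TF call was lost without SAF-TF replicate 1 (adjusted p = 0.0842) or PF-TF replicate 1 (0.0645), with a change of 2.62 without PF-TF replicate 2. Its WT call was lost without SAF-WT replicate 1 (0.0594) or 2 (0.0777) or PF-WT replicate 2 (0.0788), with a change of 2.95 without PF-WT replicate 1. The WT call of Col6a2 was lost without SAF-WT replicate 2 (0.0665) or PF-WT replicate 2 (0.0674), with a change of 2.96 without PF-WT replicate 1 and, in TF, 4.08 without PF-TF replicate 2. Without SAF-TF replicate 1, Col6a6 stood at -3.92.

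The largest change with stage of any tested chain was that of Col25a1 in TF. This transmembrane collagen is known from neurons and from motor nerve contact with muscle. It had 0.22 and 0.68 CPM in SAF-TF, which is 2 and 6 counts, against 15.1 and 17.9 CPM in PF-TF, and 2.07 and 1.78 CPM in SAF-WT against 8.01 and 5.55 CPM in PF-WT. PF libraries were above SAF libraries at both sources. The log2 fold change was -5.16 ± 0.59 in TF (edgeR adjusted p = 1.57e-04) and -1.81 ± 0.49 in WT (edgeR adjusted p = 0.0188). The difference, -3.35 ± 0.76, did not pass the edgeR interaction test (adjusted p = 0.0785) but was called by DESeq2. Without SAF-TF replicate 2 the TF value was -6.14. The WT call was lost without SAF-WT replicate 1 (adjusted p = 0.0858) or 2 (0.0962) and without PF-WT replicate 1 (0.102). The oocyte markers fell in the same direction, with 6 of 6 lower in TF and 4 of 6 lower in WT, and their part in this result was not tested. Col13a1, a transmembrane chain known from the neuromuscular junction, had 11.1 and 8.91 CPM in SAF-TF against 1.88 and 1.40 CPM in PF-TF, and 1.03 and 2.61 CPM in SAF-WT against 2.49 and 1.55 CPM in PF-WT. Here the SAF-TF libraries stood above the other 6. It rose with stage in TF (2.60 ± 0.59, edgeR adjusted p = 0.00634), with a WT value of -0.15 ± 0.61 (edgeR adjusted p = 0.866) and a difference of 2.75 ± 0.84 that did not pass the edgeR interaction test (adjusted p = 0.159). Col23a1, the other tested transmembrane chain, had 1.32 and 0.79 CPM in SAF-TF, 0 and 2.01 CPM in PF-TF, 1.15 and 0.829 CPM in SAF-WT and 1.84 and 1.11 CPM in PF-WT.

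Of the 6 tested fibril-associated chains, which bind to the surface of fibrils, 2 rose and 1 fell with stage in TF, and 1 rose and 1 fell in WT. Col12a1 had 10.01 and 7.44 CPM in SAF-TF against 3.10 and 3.61 CPM in PF-TF, and 11.9 and 10.9 CPM in SAF-WT against 2.10 and 2.66 CPM in PF-WT. It rose at both sources (1.37 ± 0.41 in TF, edgeR adjusted p = 0.0225; 2.25 ± 0.43 in WT, edgeR adjusted p = 0.0034). The TF call of Col12a1 was lost without SAF-TF replicate 1 (adjusted p = 0.134) or PF-TF replicate 1 (0.0657). Col9a2, a chain of cartilage type IX collagen, had 2.42 and 6.09 CPM in SAF-TF against 9.19 and 10.3 CPM in PF-TF, and 3.33 and 5.09 CPM in SAF-WT against 14.3 and 11.2 CPM in PF-WT. All 4 PF libraries were above all 4 SAF libraries. The change was -1.60 ± 0.50 in WT (edgeR adjusted p = 0.0318) and -1.20 ± 0.49 in TF (edgeR adjusted p = 0.0752). The WT call of Col9a2 was lost with the authors' scale factors (adjusted p = 0.0782) and without either SAF-WT library (0.187 and 0.0676) or either PF-WT library (0.14 and 0.0565). Col16a1 had 2.86 and 2.59 CPM in SAF-TF against 0.222 and 0.502 CPM in PF-TF, and 2.52 and 2.61 CPM in SAF-WT against 0.919 and 0.444 CPM in PF-WT. All 4 SAF libraries were above the PF libraries, at levels of a few CPM. It rose in TF (2.85 ± 0.81, edgeR adjusted p = 0.0176), which was lost without SAF-TF replicate 1 (0.0726) or 2 (0.0602) or PF-TF replicate 1 (0.0707), and stood at 3.66 without PF-TF replicate 2. Col22a1 had 0.33 and 0.451 CPM in SAF-TF against 1.33 and 3.61 CPM in PF-TF, and 0.229 and 0.237 CPM in SAF-WT against 0.919 and 0.999 CPM in PF-WT. Its TF change of -2.62 ± 0.89 (edgeR adjusted p = 0.0371) was lost in 10 of 14 alternatives, among them DESeq2 (0.0978), and was -1.60 (adjusted p = 0.258) without PF-TF replicate 2. Col14a1 held 0 to 29 counts per library and Col9a3, a partner of Col9a2 in type IX collagen, 0 to 14 counts, and neither was called in any comparison.

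Among the multiplexins, Col18a1, the source of the fragment endostatin, had 9.57 and 6.09 CPM in SAF-TF against 36.4 and 30.1 CPM in PF-TF, and 2.07 and 13.5 CPM in SAF-WT against 1.71 and 6.99 CPM in PF-WT. The PF-TF libraries were above the other 6, and the WT libraries of each stage differed widely. The TF stage change was -2.08 ± 0.77 and missed the threshold (edgeR adjusted p = 0.0529), while DESeq2 called it lower. Col15a1, its relative, had 3.63 and 2.03 CPM in SAF-TF against 0.443 and 0.602 CPM in PF-TF, and 3.10 and 2.37 CPM in SAF-WT against 1.97 and 0.555 CPM in PF-WT. It was called higher in TF (2.40 ± 0.83, edgeR adjusted p = 0.04), a call that held under 7 of 14 alternatives, with adjusted p up to 0.199 without SAF-TF replicate 1. Col8a1, a short-chain network collagen of vessel walls, had 4.07 and 3.16 CPM in SAF-TF against 1.55 and 2.21 CPM in PF-TF, and 11.9 and 4.15 CPM in SAF-WT against 0.657 and 0.444 CPM in PF-WT. SAF libraries were above PF libraries at both sources, and the SAF-WT libraries differed from each other. It rose in WT (3.85 ± 0.72, edgeR adjusted p = 0.00329), at 2.89 without SAF-WT replicate 1, with 0.94 ± 0.63 in TF (edgeR adjusted p = 0.259). Col26a1 had 2.75 and 1.35 CPM in SAF-TF, 0 and 0.602 CPM in PF-TF, 2.41 and 2.84 CPM in SAF-WT and 0.394 and 0.333 CPM in PF-WT, with the SAF libraries above the PF libraries. Col28a1 had 0.22 and 1.02 CPM in SAF-TF, 0.665 and 3.21 CPM in PF-TF, 0.115 and 0.355 CPM in SAF-WT and 2.63 and 0.222 CPM in PF-WT. These low chains, the tested ones of the last class, were not called in any comparison.

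The source effect asks how follicles from transplanted cells compare with wild type follicles of the same stage. Among small antral follicles 6 of 34 chains were called lower in SAF-TF (17.6%), against 5.34% of all genes, and 1 was called higher (2.94%), against 4.61% of all genes. The chains lower in SAF-TF were Col1a2, Col5a2 and Col11a1 of the fibrillar class, Col4a3 and Col4a4 of the basement membrane class and Col6a3. Col13a1 was higher. All per-library values of these chains are given above. None of the 7 overlapped between SAF-TF and SAF-WT, but the calls come from these same libraries, so this adds no separate support. Of the 34 tested chains, 4 had both SAF-TF libraries above both SAF-WT libraries and 13 had both below. The share over all genes was not counted. The log2 fold change of SAF-TF over SAF-WT was -2.66 ± 0.62 for Col11a1 (edgeR adjusted p = 0.0301), -2.01 ± 0.47 for Col4a4 (0.0296), -1.74 ± 0.47 for Col1a2 (0.0465), -1.68 ± 0.31 for Col6a3 (0.0145), -1.50 ± 0.38 for Col4a3 (0.04), -1.29 ± 0.27 for Col5a2 (0.0212) and 2.45 ± 0.59 for Col13a1 (0.0329). Other chains of the same collagen types were not called by edgeR. Col4a5, the partner of Col4a3 and Col4a4, stood at -0.14 ± 0.39 (edgeR adjusted p = 0.846). Col5a1 stood at 0.06 ± 0.41 (edgeR adjusted p = 0.944), Col4a1 at -0.38 ± 0.38 (0.55), Col4a2 at 0.10 ± 0.36 (0.892), Col6a1 at -0.30 ± 0.49 (0.733) and Col6a2 at -0.23 ± 0.50 (0.804). Col3a1 was lower in both SAF-TF libraries but not called by edgeR (-1.32 ± 0.54, adjusted p = 0.143), and Col1a1 was at -0.63 ± 0.73 (0.609). DESeq2 called 8 chains lower, the 6 of edgeR with Col3a1 and Col25a1, and 2 higher, Col13a1 and Col6a5. Of all 17925 genes, DESeq2 called 1613 lower and 1236 higher in SAF-TF. For edgeR, Col25a1 was at -2.07 ± 0.61 (adjusted p = 0.0597) and Col6a5 at 2.40 ± 0.72 (0.0649). The median over the 34 chains was -0.31, where that of all genes was 0.00, and over the 8 fibrillar chains it was -0.96.

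**Figure D5:**
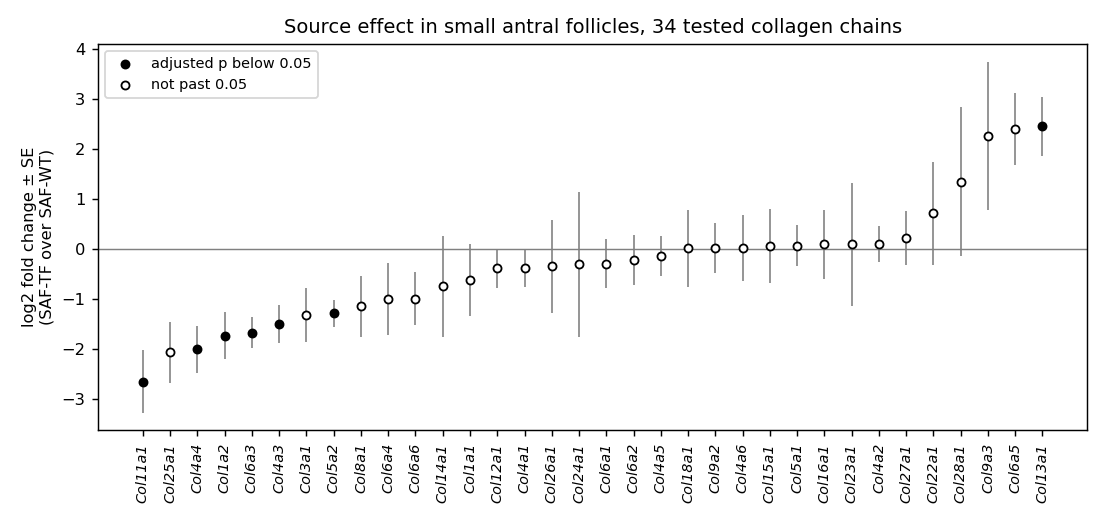
Log2 fold change ± SE (y axis) of SAF-TF over SAF-WT for the 34 tested chains (x axis, ordered by value), with filled points past an adjusted p of 0.05. Col11a1 is lowest at -2.66, Col13a1 highest at 2.45, and Col4a1, Col4a2, Col5a1, Col6a1 and Col6a2 lie within 0.38 of 0.

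Each of these 7 calls was lost when any 1 of the 4 SAF libraries was left out, with the log2 fold change keeping its sign. Over those fits the adjusted p ran from 0.0717 to 0.233 for Col11a1, from 0.0974 to 0.209 for Col4a4, from 0.134 to 0.187 for Col1a2, from 0.0618 to 0.113 for Col6a3, from 0.0762 to 0.277 for Col4a3, from 0.0841 to 0.162 for Col5a2 and from 0.0727 to 0.227 for Col13a1, whose change was 3.26 without SAF-WT replicate 2. The call of Col1a2 was also lost without PF-TF replicate 1 (0.0562) or 2 (0.0569). In the same comparison 3 of 8 stroma and fibroblast markers and 4 of 4 tested theca markers were lower in SAF-TF, 1 stroma marker was higher, and the 5 theca markers summed to 50.3 and 48.7 CPM in SAF-TF against 460 and 466 CPM in SAF-WT. All 5 luteal markers, 2 of 6 granulosa and 2 of 6 macrophage markers were higher in SAF-TF and 2 of 6 oocyte markers lower, and the part of any of these markers in the collagen differences was not tested.

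Among preantral follicles edgeR called 0 of 34 chains in either direction, where 0.0669% of all genes were called higher and 0.151% lower in PF-TF. DESeq2 called Col18a1 and Col4a3 higher and Col1a2 and Col3a1 lower, where it called 332 of all 17925 genes higher and 990 lower. Col18a1 stood at 2.91 ± 0.81 (edgeR adjusted p = 0.094), Col4a3 at 1.34 ± 0.38 (0.0959), Col1a2 at -1.42 ± 0.48 (0.141) and Col3a1 at -1.90 ± 0.57 (0.11). For all 4 of these chains the PF-TF and PF-WT libraries did not overlap, though the nearest libraries were close for Col1a2 (21.6 CPM in PF-TF and 22.7 CPM in PF-WT) and Col3a1 (21.6 and 25.9 CPM). Of the 34 tested chains, 8 had both PF-TF libraries above both PF-WT libraries and 9 had both below, though edgeR called none. The share of all genes without overlap was not counted. Over the 8 fibrillar chains the median was -1.37, and 7 of the 8 had a negative value, though within PF-WT the fibrillar sum differed between libraries, at 246 and 82.5 CPM. PF-WT replicate 1 was also higher than replicate 2 in the summed smooth muscle (574 against 173 CPM) and macrophage markers (423 against 69.7 CPM), whose part was not tested. Without PF-WT replicate 2, edgeR called 3 chains (Col1a2, Col3a1 and Col4a1) lower in PF-TF, in a fit where 634 of all 17925 genes were called lower, against 27 with all 8 libraries.

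Collagen chains are hydroxylated, glycosylated and folded in the endoplasmic reticulum before export, and lists of the genes for these steps and for later handling were read beside the chains. Of 17 genes for modification and folding, 2 rose (11.8%) and 1 fell (5.88%) with stage in TF, and 3 rose (17.6%) and 1 fell in WT. Of all genes, 18.2% were called higher and 25.0% lower in TF, and 12.7% higher and 22.5% lower in WT, and the counts of the lists that follow stand beside the same shares. Leprel2, a prolyl 3-hydroxylase, had 9.46 and 6.65 CPM in SAF-TF against 0.775 and 2.31 CPM in PF-TF, and 5.05 and 7.82 CPM in SAF-WT against 1.58 and 1.44 CPM in PF-WT. It rose in TF (2.36 ± 0.60, edgeR adjusted p = 0.0107) and in WT (2.08 ± 0.61, 0.0243). The collagen chaperone Serpinh1 had 69.5 and 36.5 CPM in SAF-TF against 51.7 and 48.1 CPM in PF-TF, and 76.9 and 80.2 CPM in SAF-WT against 41.2 and 42.6 CPM in PF-WT. It rose in WT (0.91 ± 0.30, edgeR adjusted p = 0.0386), and its TF groups overlapped. Between sources in SAF, the prolyl 3-hydroxylase Lepre1 (1.72 ± 0.36, edgeR adjusted p = 0.0202) and the lysyl hydroxylase Plod3 (1.60 ± 0.44, 0.0484) were higher in SAF-TF and the prolyl isomerase Ppib (-0.76 ± 0.19, 0.0356) was lower. Every chain call in this comparison was lost when any 1 SAF library was left out, as given above. No such values are given for the genes of this list or of those that follow, so the stability of their calls is not known. Of 4 genes for the export of large cargo, Sec24d, a coat protein of transport vesicles, rose in TF (2.26 ± 0.36, edgeR adjusted p = 9.89e-04). Ctage5, which acts with Mia3 in collagen export at exit sites, fell in TF (-0.97 ± 0.18, 0.00249) and in WT (-1.20 ± 0.19, 0.00125). Mia3 fell in TF (-0.77 ± 0.23, 0.0248).

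Of the 10 tested genes for propeptide removal and crosslinking, 3 rose (30%) and 2 fell (20%) in TF, and 2 rose (20%) and 2 fell (20%) in WT. With only 10 genes, the share that fell was near that of all genes, 25.0% in TF and 22.5% in WT. Loxl2, which crosslinks type IV collagen, had 11.2 and 6.20 CPM in SAF-TF against 0.111 and 0.100 CPM in PF-TF, and 10.8 and 10.7 CPM in SAF-WT against 1.71 and 0.333 CPM in PF-WT. It rose by 6.19 ± 0.89 in TF (edgeR adjusted p = 5.49e-04), where PF-TF held no more than 1 count per library so that the size rests on the fit, and by 3.41 ± 0.68 in WT (0.00452). Lox, the enzyme that crosslinks fibrillar collagen, had 22.7 and 20.5 CPM in SAF-TF against 0 and 2.31 CPM in PF-TF, and 101 and 78.8 CPM in SAF-WT against 15.0 and 4.66 CPM in PF-WT. It rose in TF (4.17 ± 0.88, edgeR adjusted p = 0.00436) and in WT (3.21 ± 0.76, 0.0101). Both crosslinking enzymes moved with stage as the major chains did. Pcolce, which enhances the removal of the C-terminal propeptide, had 266 and 79.5 CPM in SAF-TF against 23.1 and 19.3 CPM in PF-TF, and 20.1 and 32.3 CPM in SAF-WT against 11.4 and 11.8 CPM in PF-WT. It was higher in SAF-TF than in PF-TF (3.02 ± 0.50, edgeR adjusted p = 0.00122) and than in SAF-WT (2.72 ± 0.50, 0.0132), the reverse of the source effect on Col1a2. Adamts3, a protease of the N-terminal propeptide, fell in TF (-2.94 ± 0.55, edgeR adjusted p = 0.00229) and in WT (-2.08 ± 0.52, 0.0131). Pcolce2, a relative of Pcolce, was at 0 counts in both SAF-TF libraries. It had 22 and 16 counts in PF-TF, 9 and 11 counts in SAF-WT, and 26 and 8 counts in PF-WT. SAF-TF was thus the lowest group for Pcolce2 and the highest for Pcolce, and no fold change is given for Pcolce2.

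Of 7 genes for breakdown, 2 rose and 2 fell in TF (28.6% each), and 1 rose (14.3%) and 2 fell (28.6%) in WT, where the WT shares and the share that fell in TF were near those of all genes. Ctsk, a protease that cuts fibrillar collagen, had 18.8 and 17.6 CPM in SAF-TF against 5.87 and 4.52 CPM in PF-TF, and 33.0 and 24.5 CPM in SAF-WT against 3.68 and 2.55 CPM in PF-WT. It rose in TF (1.81 ± 0.35, edgeR adjusted p = 0.00284) and in WT (3.21 ± 0.38, 2.93e-04), whereas the gelatinase Mmp2 fell in TF (-1.31 ± 0.30, 0.00647) and in WT (-1.27 ± 0.30, 0.00972). The 4 Timp genes, inhibitors of the metalloproteinases, all rose in TF, and 3 rose in WT. Timp1 had 445 and 253 CPM in SAF-TF against 25.6 and 22.2 CPM in PF-TF, and 92.4 and 107 CPM in SAF-WT against 24.7 and 28.4 CPM in PF-WT. It rose in TF (3.87 ± 0.30, edgeR adjusted p = 2.55e-05) and in WT (1.91 ± 0.28, 9.83e-04), and was higher in SAF-TF than in SAF-WT (1.81 ± 0.28, 0.00712). Timp4 was also higher in SAF-TF than in SAF-WT (3.94 ± 0.81, edgeR adjusted p = 0.0196). Of 8 tested collagen receptors, 3 rose in TF and 3 in WT (37.5% each), against 18.2% and 12.7% of all genes. Ddr2, a receptor kinase for fibrillar collagen, had 26.4 and 20.2 CPM in SAF-TF against 6.87 and 7.33 CPM in PF-TF, and 40.0 and 32.3 CPM in SAF-WT against 10.9 and 7.99 CPM in PF-WT. It rose in TF (1.71 ± 0.32, edgeR adjusted p = 0.00231) and in WT (1.94 ± 0.32, 0.0017), as did the integrin chain Itga1 (3.03 ± 0.84, 0.016; 2.26 ± 0.74, 0.0387).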

How the data were processed

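RNA of 8 single follicles was measured. The submitters' processing notes name HISAT2 2.0.1 and the GRCm38 build; the counter, annotation and strand setting were not given in the sources used here. Raw read counts per gene and library were deposited, in 1 table per source. Beside these stood a normalized signal, per the file headers and values a group's mean count after scaling each library, with a log2 ratio and an adjusted p-value (FDR) that the authors deposited. Only the counts were tested. The signal served to recover the authors' scale factors.

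Of 22129 (TF) and 22138 (WT) listed genes, the 21997 shared ones were joined. Genes passing filterByExpr (min.count 10, min.total.count 15), 17925 in all, entered the quasi-likelihood test of edgeR 4.0.16 in R 4.3.3. It used TMM factors, a mean for each of the 4 groups and thus 4 residual degrees of freedom. P-values were adjusted by Benjamini-Hochberg over these genes and called at 0.05. SE was taken as log2 fold change over the root of F. Totals of 7656108 to 9805287 counts per library set the depth. The variance between replicate counts was 10.2 to 36.8 times that of counting error (chi-square per degree of freedom), at a common biological coefficient of variation of 0.303. The test was checked on simulated counts.

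Chains and gene lists were chosen with earlier results of these data known. Values in every library are given for the 3 highest tested chains of a class, for chains called in a source effect or the interaction, and for up to 4 chains per direction with the largest called stage change and no overlap. Other chains are given by range. Of each pathway list, up to 3 called genes with the smallest p per comparison could be named. Positions and promoters came from RefSeq (GRCm38.p6) and lengths from GENCODE; promoters matched 32 of 40 chains. Alternatives were RLE factors, the authors' scale factors, no low-count filter, at least 10 CPM in 2 libraries, DESeq2 1.42.0, fits of the 4 libraries at issue, the replicate number as a block, and each library left out.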

Additional observations from a re-analysis of the deposited data

Results flagged for a closer look

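The stage effect on Col4a3, a basement membrane chain, differed between sources by the interaction test. SAF over PF was -1.93 ± 0.39 (log2) in TF and 0.91 ± 0.38 in WT, a difference of -2.84 ± 0.54 (edgeR adjusted p = 0.0458). Its level was 6.05 and 8.91 CPM in SAF-TF, 36.3 and 20.7 CPM in PF-TF, 22.0 and 20.3 CPM in SAF-WT and 9.45 and 13.0 CPM in PF-WT, so that SAF lay below PF in TF and above PF in WT, with no overlap in either. Over 14 alternatives the adjusted p of the difference ran from 2.57e-04 to 0.178, and 6 of the 14 passed the threshold.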

How the results depend on the processing

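No called value of a chain changed sign under any alternative; of 1736 values that were not called, 102 did. In SAF, 1 chain was higher and 6 lower in SAF-TF; these were 2 and 8 by DESeq2 and 2 and 7 in the fit of the 4 SAF libraries, while the higher were 0 at 10 CPM (where Col13a1 was not tested) and 0 with the replicate number as a block, which left 3 lower. In PF, DESeq2 called 2 higher and 2 lower where edgeR called 0. The interaction, 1 chain lower, became 3 by DESeq2 and 0 with the block. With the authors' scale factors 1 chain was lower with stage in WT, against 2; these factors apply within a source only, so source effects have no such value. RLE factors moved the median stage effect of all genes by 0.12 (TF) and 0.16 (WT) on the log2 scale and no count of chains by over 1.5 times.

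With 1 library left out, its partner assumed to vary like the other groups, the counts ran from 9 to 16 chains higher and 3 to 5 lower with stage in TF, 10 to 17 higher and 0 to 2 lower in WT, 0 to 2 higher and 0 to 6 lower for the source in SAF, 0 to 3 lower in PF, and 0 to 1 lower for the interaction. Per kilobase, basement membrane chains took 20.3% of collagen in SAF-TF, 22.5% of it in PF-TF and 12.0% of it in SAF-WT, and beaded filament chains 16.0% in SAF-TF; the other shares of these classes and of fibrillar chains moved by under 1 SD. Among the small classes, fibril-associated chains took 10.4% per kilobase in PF-TF and 10.9% in PF-WT, against 6.61 ± 0.236% and 6.80 ± 1.84% of counts, and transmembrane chains 2.55% in SAF-TF, against 1.54 ± 0.181%. Same-numbered libraries of different groups deviated together with r between -0.12 and 0.113. These values cannot tell whether same-numbered follicles share an animal, which the labels do not say. With the replicate number as a block, 12 chains were higher and 3 lower with stage in TF, and 14 and 2 in WT. Calls of Col1a2, Col4a4, Col4a3 and Col13a1 in SAF were lost under the block (adjusted p = 0.0504, 0.0548, 0.0689 and 0.0622), as was the Col4a3 interaction (0.0898). Over all genes the source effect in SAF, 827 higher and 958 lower, ran from 69 to 1352 higher and 37 to 1276 lower with 1 library left out, was 1236 and 1613 by DESeq2, 2126 and 1738 in the fit of the 4 libraries and 485 and 584 with the block. In PF, 12 higher and 27 lower became 332 and 990 by DESeq2, 36 and 171 with no filter, and 231 and 634 without PF-WT replicate 2. The interaction, 118 and 44, became 482 and 328 by DESeq2 and 62 and 12 with the block. With 2 whole follicles a group, library and group spread are estimated from few values, and depth limits the chains of a few CPM.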

Other observations

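Promoter windows of 300 bases were at hand for 32 of the 40 chains. CCAAT was found in 11 of these (34.4%, against 37.9% of all 27025 windows), GGGCGG in 20 (62.5%, against 35.9%) and TATAAA in 4 (12.5%, against 14.2%). The TATAAA windows were those of Col3a1, Col13a1, Col10a1 and Col17a1, of which the last 2 were too low to be tested. The 6 basement membrane chains had 5 windows in the table, and GGGCGG was in those of Col4a1, Col4a2, Col4a5 and Col4a6 but not in that of Col4a4. The Col4a1 and Col4a2 windows overlap and share a GGGCGG site. These are matches of letters and not binding sites.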
